A study of Mus musculus with 2 samples.

Results

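The 9 genes described here encode scavenger receptors and related clearance proteins: Msr1, Marco, Cd36, Olr1, Scarb1, Scarb2, Stab1, Lrp1 and Cd68. They were taken by symbol from the gene list of the count matrices, where each occurred once among 31053 genes, so all 9 were measured. Bone marrow cells of 129Sv mice had been grown with 50 ng/ml macrophage colony-stimulating factor (M-CSF), under which marrow precursors mature into macrophages. On day 7 they received, for 18 h, either 1 µg/ml of a truncated Tamm-Horsfall protein that does not polymerize (THP, or uromodulin, a glycoprotein that kidney tubules release into urine) or 5% dextrose as vehicle. There was 1 droplet library per group. The labels do not say how many mice or dishes went into a library, so treatment, dish and library preparation cannot be told apart, and no difference below has a replicate check or a p-value.

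Scavenger receptors are surface proteins that bind modified lipoproteins, dying cells, bacteria and other polyanionic ligands and carry them into the cell. Class A receptors such as Msr1 and Marco are collagen-like trimers typical of macrophages, and class B receptors such as Cd36 and Scarb1 move lipids. Macrophages use them for lipid uptake and clearance, and loading of lipid through them is a known feature of foam cells. Msr1, Scarb1 and another scavenger receptor, Scarf1, have been described as binding partners of Tamm-Horsfall protein, which makes the RNA of this family a natural readout of the treated culture. Only RNA was measured.

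After the cell filter, 12123 THP cells with 224825484 unique molecular identifiers (UMIs, 1 per captured RNA molecule) and 10978 vehicle cells with 207662132 UMIs were kept, at medians of 16113 and 17223 UMIs per cell. The labelled cell type was bone marrow derived macrophages, but the cultures were mixed. A cell was assigned to the marker list with its highest mean z score, if that was at least 0.5. These gates are ranges of a score and not cell types. Macrophage markers gated 2640 THP cells (21.8%) and 1707 vehicle cells (15.5%), and in these 15.0% and 13.4% of cells lay near the limits of the gate. The neutrophil gate held 1721 and 2257 cells, the myeloid progenitor gate 1491 and 1802, the antigen-presenting gate 950 and 1038, the monocyte gate 836 and 1135, and the osteoclast-like gate 732 and 587, THP first. Another 2866 and 1585 cells passed no gate, and 38 barcode sequences of kept cells occurred in both libraries (42 before the filter). Macrophage-gated cells had median macrophage and neutrophil scores of 1.05 and -0.48 with THP and 1.26 and -0.43 with vehicle. Their neutrophil-gated counterparts had -0.62 and 1.28 with THP and -0.73 and 1.35 with vehicle.

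Summed over all kept cells, the family differed little between the libraries, apart from Marco, Stab1 and Cd68, which were higher with THP. The measure is the log2 ratio of CPM + 1, where CPM is the number of UMIs of a gene per 1e6 UMIs of the summed cells, THP over vehicle. A gene was past the size rule when this ratio was 2-fold or more and either library reached 10 CPM. Of the 8 members with at least 10 CPM, 0 were past 2-fold, where 0.911% of the 8012 genes tested were past it on the higher side and 2.97% on the lower side. The 9 members had a median log2 ratio of -0.04, beside -0.18 for all tested genes, whose central 95% ran from -1.04 to 0.56. Marco had 87.5 CPM (exact Poisson 95% interval, 86.2 to 88.7) with THP and 50.7 CPM (49.7 to 51.7) with vehicle, a log2 ratio of 0.77 that exceeded those of 98.5% of tested genes. Stab1 had 119 CPM (117 to 120) and 91.2 CPM (89.9 to 92.5), a log2 ratio of 0.38 above 95.3% of tested genes. For Cd68 the levels were 369 CPM (366 to 371) and 294 CPM (291 to 296), a log2 ratio of 0.33. At a 1.5-fold limit, 1 member (Marco) was higher and 0 were lower, beside 2.33% and 17.3% of tested genes. The intervals cover counting error only.

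The directions of Marco, Stab1 and Cd68 were the same under 10 of 10 alternatives, and for Marco the log2 ratio ranged from 0.35 with the gates given the same weights in both libraries to 1.06 with TMM factors. Other members depended on scaling or on the mix of cells. Msr1 had 417 and 386 CPM, a log2 ratio of 0.11 that became -0.12 with the same mix of gates. Cd36 (314 and 371 CPM, -0.24) and Scarb1 (28.3 and 34.3 CPM, -0.27) were lower with THP except under TMM and RLE factors, and Scarb2 (32.8 and 40.4 CPM, -0.29) except after subtraction of the length trend. Lrp1 had 182 and 189 CPM, a log2 ratio of -0.05 that turned positive with TMM, with RLE and with the length trend. Olr1 had 4.33 and 4.49 CPM, under the level minimum. TMM factors shifted ratios over all cells up by 0.285. Across genes, which are not independent replicates, the ratio went with transcript length (Spearman rho -0.55 over 8011 genes), so long genes tended to be lower with THP. Relative to the median ratio of genes of like length, Stab1 (longest transcript, 7999 bases) stood at 0.93, Lrp1 (14888 bases) at 0.55 and Msr1 at 0.36. Lrp1 is longer than the median gene of the last length bin and was set against that bin, so its length-trend values are less certain. In such sums over mixed cells, more cells of a type and more RNA per cell cannot be told apart.

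**Figure D1:**
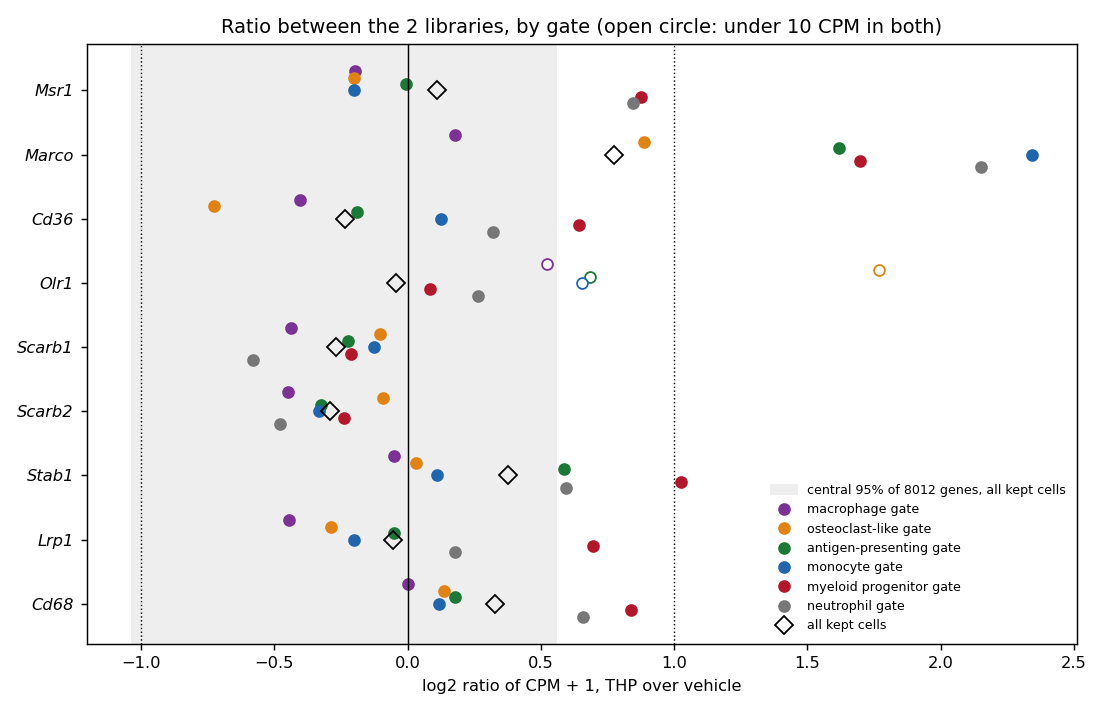
The horizontal axis is the log2 ratio of CPM + 1, THP over vehicle, and each row is a gene; circles are the 6 gates with at least 500 cells in each library, diamonds all kept cells, and dotted lines 2-fold. The Marco circles of the monocyte, neutrophil, myeloid progenitor and antigen-presenting gates and the Stab1 circle of the myeloid progenitor gate lie to the right of the 2-fold line, as does the open Olr1 circle of the osteoclast-like gate (1.77, under 10 CPM in both libraries), and the macrophage-gate circles lie between -0.45 and 0.52.

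Msr1, Marco, Stab1, Lrp1 and Scarb2 had their highest levels in the macrophage gate. For Scarb2 with THP, its interval overlapped that of the osteoclast-like gate. Within the macrophage gate 0 members were past 2-fold, beside 1.01% of 7938 tested genes on the higher and 2.87% on the lower side. Over the 10 classes of cells compared (9 gates and the ungated cells), 5 pairs of member and gate were past it on the higher side, and 4 of these were Marco. They lay in the monocyte, neutrophil, myeloid progenitor and antigen-presenting gates, where 0.978%, 1.77%, 1.37% and 1.11% of tested genes were past 2-fold higher. On the lower side there were 0 pairs, where the share of tested genes past 2-fold lower was 2.26% in the monocyte gate, 5.85% in the neutrophil gate, 2.35% in the progenitor gate, 4.01% in the antigen-presenting gate and 1.85% in the osteoclast-like gate. In the small gates and the ungated cells the shares past 2-fold higher and lower were 2.12% and 5.68% (mast cells or basophils), 1.9% and 8.53% (B lineage), 2.06% and 6.19% (stromal) and 1.04% and 2.93% (ungated). At a limit of 1.5-fold the pairs were 17 higher and 2 lower, beside 3.75% and 19.2% of all pairs of gene and gate tested.

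Marco and Stab1 were the members past the size rule in a gate, and Olr1 was the member highest in neutrophil-gated cells, so the 250 bases before their RefSeq gene starts (GRCm38.p6, all on the minus strand) are shown, 5′ to 3′, with matches to 4 short motifs in capitals. The motifs, searched on both strands, were GAGGAA, the core bound by PU.1, GGG followed by any 5 bases and CC for NF-kB, TGANTCA for AP-1 and CATGTG, an E-box of the kind bound by MITF and TFE3. Of 32851 RefSeq promoters of this length, 23.3%, 45.8%, 6.75% and 12.3% held a match, respectively.
Marco (chr1:120505025-120505274): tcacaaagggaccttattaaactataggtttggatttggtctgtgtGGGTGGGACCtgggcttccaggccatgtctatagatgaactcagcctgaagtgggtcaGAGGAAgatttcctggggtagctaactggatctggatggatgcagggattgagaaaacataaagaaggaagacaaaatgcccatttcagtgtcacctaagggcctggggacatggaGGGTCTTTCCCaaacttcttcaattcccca
Stab1 (chr14:31168642-31168891): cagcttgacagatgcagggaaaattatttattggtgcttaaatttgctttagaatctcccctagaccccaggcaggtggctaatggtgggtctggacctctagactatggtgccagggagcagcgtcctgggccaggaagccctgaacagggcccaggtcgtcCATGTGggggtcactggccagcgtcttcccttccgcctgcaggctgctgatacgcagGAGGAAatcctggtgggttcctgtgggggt
Olr1 (chr6:129507166-129507415): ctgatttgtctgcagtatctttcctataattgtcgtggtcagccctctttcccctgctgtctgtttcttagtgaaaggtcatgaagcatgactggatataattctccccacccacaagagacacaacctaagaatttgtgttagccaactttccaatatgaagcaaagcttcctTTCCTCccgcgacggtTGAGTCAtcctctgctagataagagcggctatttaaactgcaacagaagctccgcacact
The Marco stretch held 1 PU.1 core at -146 to -141 and 3 NF-kB matches, at -204 to -195, -30 to -21 and -29 to -20 from the start, and the last 2 overlap each other. Stab1 held a PU.1 core at -30 to -25 and an E-box at -87 to -82. In Olr1 a PU.1 core lay at -76 to -71, on the opposite strand, and an AP-1 match at -60 to -54. RefSeq entries were found for 7 of the 9 members. A match is a run of letters and not a measured binding site.

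Msr1 (chromosome 8, 39581685 to 39642673, minus strand) encodes the class A receptor SR-A, which takes up acetylated and oxidized lipoproteins. It was detected widely, and its level in macrophage-gated cells was slightly lower with THP. There it had 605 CPM (599 to 611) with THP and 693 CPM (686 to 701) with vehicle, a log2 ratio of -0.20 that became 0.06 with TMM and 0.06 with the length trend. Of macrophage-gated cells thinned to 5000 UMIs, 92.0% with THP and 95.2% with vehicle had an Msr1 UMI. Unthinned, the shares were 99.3% and 99.6%. The osteoclast-like gate followed at 453 and 520 CPM, and in the monocyte gate Msr1 stood at 291 and 335 CPM. Antigen-presenting cells had 332 and 334 CPM. Intervals of the monocyte and antigen-presenting gates overlapped with vehicle and did not with THP. Lowest were the neutrophil gate, at 107 and 59.4 CPM, and the myeloid progenitor gate, at 79.9 and 43.1 CPM. In these 2 gates Msr1 was higher with THP by 0.84 and 0.88 on the log2 scale, short of 2-fold, and reached 1.07 and 1.06 with TMM.

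Those differences of Msr1 went with the macrophage markers. The 8 markers of the macrophage list summed to 324 CPM in the THP and 181 CPM in the vehicle neutrophil gate, with 7 of 8 higher in THP and 0 at zero. Per 100 UMIs of these markers, the neutrophil gate held 33.1 UMIs of Msr1 with THP and 32.8 with vehicle, and the myeloid progenitor gate 21.8 and 22.6. The ratio of Msr1 to macrophage markers was thus nearly equal between libraries in both gates. It was lower with THP in the monocyte gate, at 54.0 and 68.7, and in the osteoclast-like gate, at 39.2 and 50.5.

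Marco (chromosome 1, 120474538 to 120505024, minus strand) encodes the class A receptor with a collagenous domain that binds bacteria and unopsonized particles. Its UMIs were concentrated in macrophage-gated cells, which held 79.9% of them with THP and 85.2% with vehicle. There the levels were 227 CPM (224 to 231) and 201 CPM (197 to 205), a log2 ratio of 0.18 that ranged from 0.03 to 0.43 over 5 alternatives. With vehicle, the macrophage gate was 118-fold above the monocyte gate and 108-fold above the neutrophil gate, whereas with THP these folds were 17.9 and 19.4.

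Marco was scarce with vehicle, and more abundant with THP, in 4 gates other than the macrophage gate. In the monocyte gate, Marco had 12.7 CPM (10.9 to 14.7, 181 UMIs) with THP and 1.70 CPM (1.22 to 2.32, 40 UMIs) with vehicle, a log2 ratio of 2.34, in a gate where 0.978% of genes were past 2-fold higher. The neutrophil gate had 11.7 CPM (9.66 to 14.1) and 1.87 CPM (1.20 to 2.78), a log2 ratio of 2.15, beside a background of 1.77%. Myeloid progenitor-gated cells gave 15.5 CPM (14.1 to 17.1) and 4.10 CPM (3.48 to 4.79), a log2 ratio of 1.70, beside 1.37%. Antigen-presenting cells gave 21.7 CPM (19.5 to 24.0) and 6.37 CPM (5.36 to 7.52), a log2 ratio of 1.62, beside 1.11%. The 2 libraries' intervals did not overlap in any of these 4 gates, but they allow for counting noise only, where variance equals the mean. In cells thinned as for Msr1, the variance of Marco with THP was 4.10 times its mean in the monocyte gate. It was 1.96 times in the neutrophil, 3.18 times in the progenitor and 6.15 times in the antigen-presenting gate. With vehicle the values were 0.994, 0.993, 3.63 and 1.85, in that order. Intervals are too narrow where variance exceeded the mean. Osteoclast-like cells had 38.7 and 20.4 CPM, a log2 ratio of 0.89, short of the rule in a gate with a background of 0.835%. In that gate the ratio was past 2-fold with TMM, at 1.07.

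Macrophage RNA was also present in these gates and was higher with THP, by less than Marco was. Marker sums were 539 and 487 CPM in the monocyte gate and 904 and 772 CPM in the antigen-presenting gate, THP first, both with 5 of 8 markers higher, which are log2 ratios of 0.14 and 0.23. They were 367 and 191 CPM in the myeloid progenitor gate, with 7 of 8 higher. Per 100 macrophage-marker UMIs, Marco had 3.62 UMIs with THP against 1.03 with vehicle in the neutrophil gate, 4.24 against 2.15 in the progenitor gate and 2.36 against 0.349 in the monocyte gate. The small gates did not all share this direction, with 4.39 against 5.90 in stromal cells and 4.33 against 3.77 in the B lineage. The macrophage gate itself held 6.74 against 5.39, above the values of the neutrophil, progenitor and monocyte gates in each library. When only cells with a macrophage score below 0 were kept in each gate, a subset chosen after seeing the data, Marco had 3.90 and 1.36 CPM in the monocyte gate, 4.52 and 1.91 in the neutrophil gate, 3.06 and 1.63 in the progenitor gate, and 3.48 and 1.87 in the antigen-presenting gate. Their log2 ratios were 1.06, 0.93, 0.63 and 0.64, in that order. All of these levels lay under 10 CPM, so none passed the size rule. Macrophage markers in these cells still summed to 192 and 114 CPM in the neutrophil gate and 166 and 117 CPM in the progenitor gate. The sums were 376 and 377 CPM in the monocyte gate and 434 and 464 CPM in the antigen-presenting gate. In ungated cells with a macrophage score below 0, Marco stood at 11.4 and 2.44 CPM, a log2 ratio of 1.85, and the markers summed to 560 and 506 CPM. The part of macrophage RNA in these Marco levels was not tested.

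**Figure D2:**
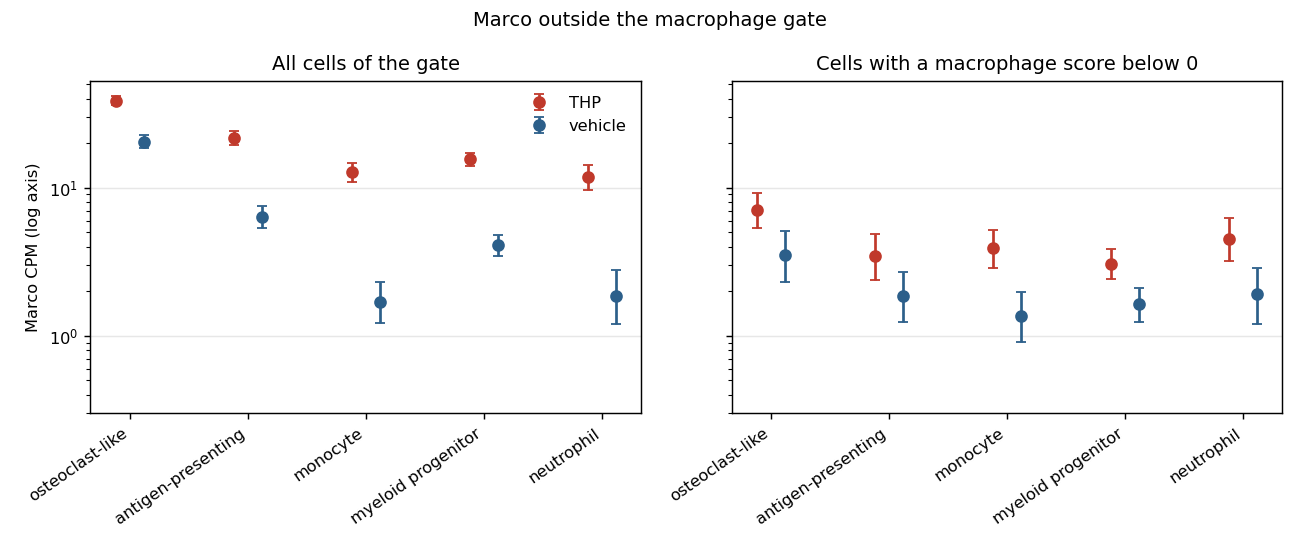
Marco level in CPM (log axis) in 5 gates other than the macrophage gate, for all cells of the gate (left) and for cells with a macrophage score below 0 (right); points are libraries and bars exact Poisson 95% intervals. THP points lie above vehicle points in all 5 gates in both panels, and in the right panel all 10 points lie under 10 CPM, with overlapping intervals in the antigen-presenting gate.

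Shares of cells gave the same picture for Marco. At 5000 UMIs per cell, 25.4% (exact binomial 95% interval, 23.7% to 27.1%) of THP and 21.3% (19.4% to 23.4%) of vehicle macrophage-gated cells had a Marco UMI. Before thinning the shares were 41.6% and 31.9%. The monocyte gate had 2.48% and 0.721%, and the progenitor gate 2.80% and 0.784%. B-lineage cells, which should lack Marco, had 7.62% and 8.62% of 105 and 58 cells, from median depths of 6138 and 5478 UMIs beside 21782 and 22836 in the macrophage gate. Macrophage markers summed to 1079 and 1283 CPM in that B-lineage gate, so its share of Marco is no clean background, and shares in the monocyte and progenitor gates lay below it.

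Among macrophage-gated cells, most Marco UMIs came from a minority of cells. At 5000 UMIs per cell its variance was 14.7 times its mean with THP and 11.7 times with vehicle (the Fano factor, which is 1 for counting noise alone), and the tenth of cells with most Marco held 81.3% and 85.7% of its UMIs. The corresponding Fano factors of Msr1 were 1.51 and 1.64. Cells with at least 5 Marco UMIs numbered 221 of 2568 with THP (8.61%, 7.55% to 9.76%) and 133 of 1669 with vehicle (7.97%, 6.71% to 9.37%). These intervals overlap. Such cells averaged 12.5 and 11.5 Marco UMIs and held 77.3% and 79.3% of all Marco UMIs in the gate. Cells with 1 to 4 UMIs made up 16.7% (15.3% to 18.2%) with THP and 13.4% (11.8% to 15.1%) with vehicle, with intervals that did not overlap. The threshold of 5 UMIs was set after seeing the data.

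The Marco-high cells also differed from Marco-negative macrophage-gated cells in other receptors, and the differences had the same sign in both libraries for 6 of the 8 other members, Lrp1 and the sparse Olr1 being the exceptions. Scarb1 was higher in Marco-high cells by 0.81 (THP) and 0.71 (vehicle) on the log2 scale, Scarb2 by 0.53 and 0.73, and Msr1 by 0.39 and 0.39. Cd36 was lower, with log2 ratios of -0.40 and -0.62, and so was Stab1, with -0.57 and -0.82. Cd68 was near equal, at 0.14 and 0.11, and Lrp1 stood at 0.02 and -0.07. The 3 genes whose profile over gates was most like that of Marco were all higher in the Marco-high cells: Cd5l, a secreted macrophage scavenger protein of the same cysteine-rich superfamily, by 3.71 and 3.74, Fam213b by less (135 against 51.7 CPM with THP, 131 against 45.8 CPM with vehicle), and Spic, a transcription factor of red pulp macrophages, by 3.26 and 2.88. Vsig4, a complement receptor of tissue macrophages that led the macrophage gate, was higher by 3.37 and 2.92. Most markers of the macrophage gate were also higher in the Marco-high cells. Log2 ratios, THP first, were 1.67 and 1.57 for C1qa, 0.81 and 0.84 for C1qb, and 1.19 and 1.34 for C1qc. For Mertk they were 1.90 and 1.58, for Adgre1 0.81 and 0.80, and for Mrc1 0.28 and 0.24. Csf1r (-0.14 and -0.25) and Fcgr1 (-0.31 and -0.51) were lower. Marco-high cells had medians of 18991 and 18845 UMIs, beside 22073 and 23502 in Marco-negative cells. Here cells were split by a member's own counts, so the values describe these cells and carry no test.

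**Figure D3:**
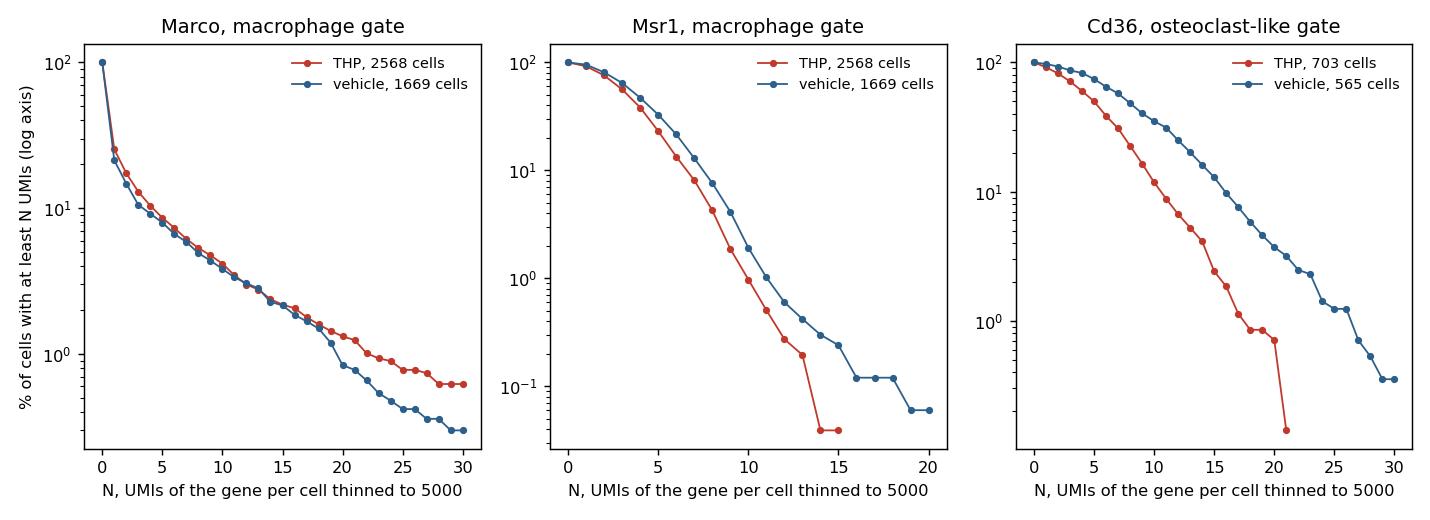
Share of gated cells (log axis) with at least N UMIs of Marco (macrophage gate), Msr1 (macrophage gate) and Cd36 (osteoclast-like gate), after each cell was thinned to 5000 UMIs; lines are the 2 libraries. The Marco lines drop to about 25.4% and 21.3% at 1 UMI and then have long tails, the Msr1 lines fall off steeply, and the Cd36 line of the vehicle library lies above that of the THP library throughout.

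Cd36 (chromosome 5, 17781690 to 17888801, minus strand) encodes the class B receptor for long-chain fatty acids and oxidized lipoproteins. Its level was highest not in macrophage-gated but in osteoclast-like cells, the gate of the fusion and resorption genes Atp6v0d2, Dcstamp and Ctsk, and it was lower there with THP. Osteoclast-like cells had 945 CPM (931 to 958) with THP and 1564 CPM (1546 to 1583) with vehicle, a log2 ratio of -0.73 that stayed between -0.77 and -0.52 over 6 alternatives. Only 7.63% of tested genes of the gate had a lower ratio, and it did not reach 2-fold. The median osteoclast-like cell had 4 Cd36 UMIs of 5000 with THP and 7 with vehicle, and 91.6% and 97.2% of these cells had at least 1.

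In macrophage-gated cells Cd36 had 376 CPM (372 to 381) and 498 CPM (491 to 504), a log2 ratio of -0.40 that was negative under 5 of 5 alternatives. Antigen-presenting cells had 194 and 221 CPM. Neutrophil, monocyte and progenitor gates had 54.6, 54.0 and 53.6 CPM with THP, with overlapping intervals, and 43.6, 49.4 and 34.0 CPM with vehicle. The progenitor gate thus had a log2 ratio of 0.64, opposite in sign to the macrophage and osteoclast-like gates, and macrophage markers were also higher there. With a macrophage score below 0, its macrophage markers still summed to 166 and 117 CPM. Cd36 in those cells was 20.9 against 17.9 CPM, a log2 ratio of 0.21. In such cells the antigen-presenting gate had 82.3 and 162 CPM, a log2 ratio of -0.97, and the neutrophil gate 18.6 and 24.7 CPM, a log2 ratio of -0.39 where all its cells gave 0.32.

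Scarb1 (chromosome 5, 125277087 to 125341094, minus strand) encodes SR-BI, the receptor that exchanges cholesterol with high-density lipoprotein, and Scarb2 (chromosome 5, 92441314 to 92506833, minus strand) encodes LIMP-2, a lysosomal membrane protein that carries the enzyme glucocerebrosidase to lysosomes. Unlike the other members, both were spread almost evenly over the culture, with a highest gate only 2.32-fold (THP) and 2.00-fold (vehicle) above the lowest for Scarb1 and 1.99-fold and 1.94-fold for Scarb2 among the 6 large gates. Scarb1 had 33.9 CPM (32.5 to 35.3) and 46.2 CPM (44.2 to 48.2) in the macrophage gate, a log2 ratio of -0.44. Scarb2 had 38.2 CPM (36.7 to 39.6) and 52.5 CPM (50.4 to 54.6), a log2 ratio of -0.45. Both ratios were negative under 5 of 5 alternatives, with ranges of -0.55 to -0.19 and -0.47 to -0.10, while the median tested gene of the gate stood at -0.17.

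Neighbouring gates were hard to order for these 2 genes. With THP, the Scarb1 intervals of the monocyte gate (35.2 CPM), the macrophage gate (33.9 CPM) and the progenitor gate (33.1 CPM) overlapped. With vehicle, the macrophage gate lay above the next gate beyond counting error for both genes. The neutrophil gate was lowest in each library, at 15.1 and 23.1 CPM for Scarb1 and 19.1 and 27.1 CPM for Scarb2. In all 6 large gates both genes were lower with THP, as was the median tested gene, at -0.25 to -0.16. Scarb1 lay above that median in the monocyte and osteoclast-like gates (53.6% and 55.1% of genes below it) and Scarb2 in the osteoclast-like gate (56.6%). Signs also depended on scaling, since for Scarb1 the sign turned with TMM and with the length trend in the monocyte and osteoclast-like gates, and for Scarb2 with TMM in the osteoclast-like gate and with the length trend in the monocyte, progenitor, antigen-presenting and osteoclast-like gates.

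Olr1 (chromosome 6, 129485244 to 129507165, minus strand) encodes LOX-1, a lectin-like receptor for oxidized low-density lipoprotein. Unlike the other members, it was highest in the neutrophil gate and scarce in macrophage-gated cells. The neutrophil gate had 24.2 CPM (21.2 to 27.6) with THP from 229 UMIs, the vehicle library held 257 UMIs (17.6 to 22.6 CPM), and the progenitor gate had 15.1 and 14.2 CPM from 421 and 539 UMIs. The 2 libraries' intervals overlapped in both gates. Of all Olr1 UMIs, the neutrophil gate held 23.5% with THP and 27.5% with vehicle. The progenitor gate, with more UMIs in sum, held 43.2% and 57.8%. Macrophage-gated cells had 0.983 CPM from 68 UMIs and 0.381 CPM from 17 UMIs, which left the neutrophil gate 24.6-fold above the macrophage gate with THP.

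At 5000 UMIs, 13.7% of neutrophil-gated THP cells and 11.7% of vehicle cells had an Olr1 UMI, against 0.545% and 0.240% of macrophage-gated cells. Reaching this depth left out 1027 of the THP and 1342 of the vehicle neutrophil-gated cells, and at 2000 UMIs the shares in neutrophils were 4.96% and 3.66%. Before thinning they were 11.3% and 9.39%. The widest gap between libraries lay in osteoclast-like cells, with 4.28 CPM (3.41 to 5.30) from 84 UMIs and 0.548 CPM (0.263 to 1.01) from 10 UMIs. Both were under the 10 CPM minimum, so Olr1 passed no size rule there. The log2 ratio of 1.77 on CPM + 1 ranged from 1.74 to 2.01 over 6 alternatives.

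Stab1 (chromosome 14, 31139013 to 31168641, minus strand) encodes stabilin-1, a clearance receptor of macrophages and sinusoidal endothelium that takes up modified lipoproteins and dying cells. Its level in macrophage-gated cells was nearly equal, at 203 CPM (199 to 206) with THP and 210 CPM (206 to 214) with vehicle. The log2 ratio of -0.05 turned to 0.21 with TMM and to 0.48 with the length trend. Osteoclast-like cells had 94.6 and 92.6 CPM. Below them the libraries parted: 63.7 and 42.1 CPM in antigen-presenting cells, 29.2 and 19.0 CPM in the neutrophil gate, and 27.7 CPM (25.8 to 29.8) against 13.1 CPM (499 UMIs) in the progenitor gate. The last ratio, 1.03 on the log2 scale, was just past 2-fold. With a macrophage score below 0 it was 0.68, from 11.4 and 6.74 CPM, whereas the antigen-presenting gate then had 0.10 (25.3 and 23.5 CPM) and the neutrophil gate 0.09. Over all cells of these gates the macrophage markers summed to 367 and 191 CPM in the progenitor gate, 904 and 772 in the antigen-presenting gate and 324 and 181 in the neutrophil gate. In the cells with a score below 0 the sums were 166 and 117, 434 and 464, and 192 and 114 CPM, in that order. The part of such RNA in the Stab1 levels was not tested. Monocyte-gated cells had 30.6 and 28.3 CPM, with overlapping intervals.

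Lrp1 (chromosome 10, 127538161 to 127621148, minus strand) encodes a giant endocytic receptor of the low-density lipoprotein receptor family that clears remnant lipoproteins and protease complexes. It was lower with THP in the macrophage gate, at 276 CPM (272 to 280) and 376 CPM (370 to 382). The log2 ratio of -0.44 became 0.14 when the length trend was subtracted, Lrp1 having the longest transcript of the 9 genes. The osteoclast-like gate had 224 and 273 CPM, also lower with THP except with the length trend, at 0.32. Progenitors had 37.6 CPM (35.4 to 40.0) and 22.9 CPM (21.4 to 24.4), a log2 ratio of 0.70 that was positive under 6 of 6 alternatives. Summed macrophage markers had a log2 ratio of 0.94 in that gate, and their part in the Lrp1 level was not tested. Neutrophil-gated cells had 32.2 and 28.3 CPM, with overlapping intervals.

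Cd68 (chromosome 11, 69664213 to 69666153, minus strand) encodes macrosialin, a heavily glycosylated lysosomal membrane protein used as a macrophage marker. It was highest in osteoclast-like cells, at 708 CPM (696 to 720) with THP and 643 CPM (632 to 655) with vehicle. Macrophage-gated cells were next, with 472 CPM (467 to 477) and 471 CPM (464 to 477), which is a log2 ratio of 0.00. Over the alternatives this ratio ran from -0.13 to 0.26, so its sign in the macrophage gate depended on the setting. Over all kept cells the log2 ratio was 0.33 and was positive under 10 of 10 alternatives, the lowest being 0.12. What sets the 2 apart was not tested. Progenitor-gated cells had 90.1 and 50.0 CPM, a log2 ratio of 0.84, and neutrophil-gated cells 99.7 and 62.7 CPM, a log2 ratio of 0.66. The summed macrophage markers of these 2 gates had log2 ratios of 0.94 and 0.84, and the part of such RNA in the Cd68 levels was not tested.

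**Figure D4:**
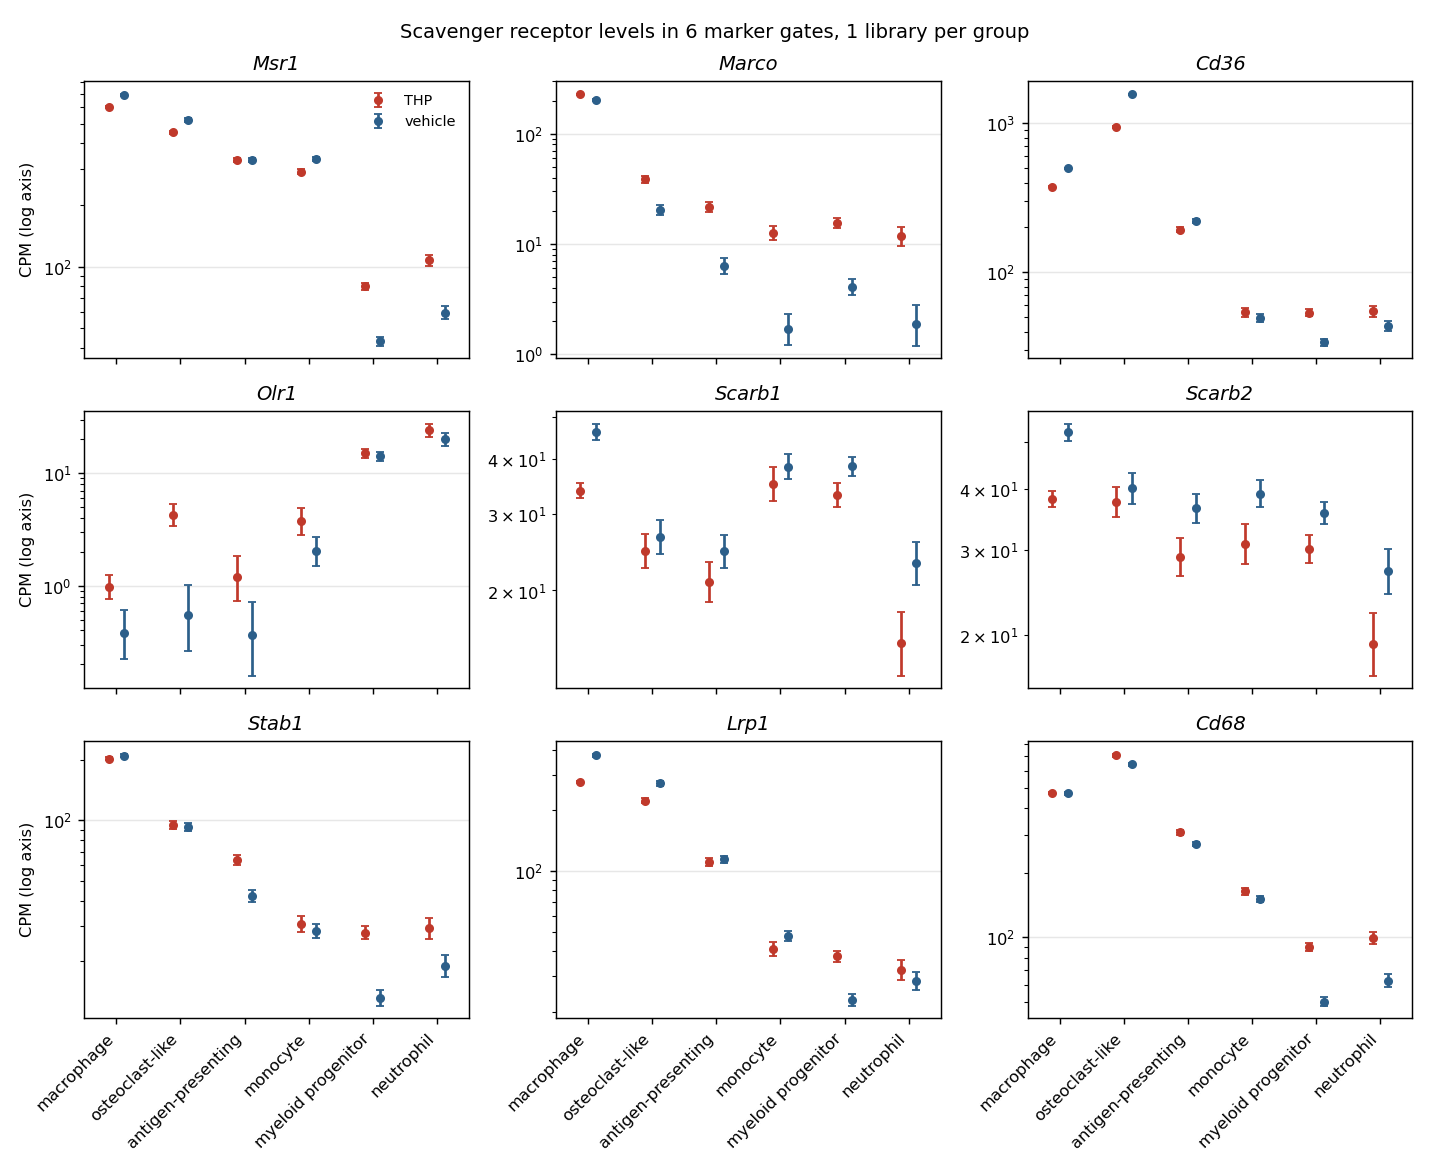
Level of each gene in CPM (log axis, a scale of its own in each panel) in the 6 gates with at least 500 cells in each library; red points are the THP library, blue points the vehicle library, and bars exact Poisson 95% intervals. Msr1, Marco, Stab1 and Lrp1 are highest in the macrophage gate, Cd36 and Cd68 in the osteoclast-like gate and Olr1 in the neutrophil gate, while the Scarb1 and Scarb2 levels span about 2-fold.

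Genes with the profile most like each member were sought among genes with at least 10 CPM, by Pearson's correlation of log2(CPM + 1) over 18 profiles of library and gate. The 18 points share 2 libraries and pooled cells, so the coefficients are descriptions. Lrp1 was most like Sdc3 (0.99), a syndecan, Cd36 was most like Lipa (0.98), the lysosomal acid lipase, and Cd68 was most like Trem2 (0.98), a lipid-sensing receptor. For Stab1 the leading gene was Aif1 (0.97), which encodes the macrophage protein IBA1, and for Msr1 it was Tnfrsf11a (0.97), the receptor RANK. Marco was most like Cd5l (0.93). Olr1 had Gm1604a (0.93) in the lead, followed by Mgst2 (0.92) and Csf3r (0.92), the receptor for granulocyte colony-stimulating factor. Scarb1 was most like Acly (0.90), which makes the acetyl-CoA used for lipid synthesis, and Scarb2 most like Vapb (0.92).

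Other genes of the scavenging pathway were read from 5 lists over all kept cells, by the same size rule. Of 25 other scavenger receptors, 23 were matched in the files and 11 had at least 10 CPM. Of these, 2 were past 2-fold higher and 0 lower, beside 0.911% and 2.97% of all tested genes. The median log2 ratio was -0.33, beside -0.18 for all tested genes, or 0.10 after subtraction of the length trend. Cd14, the co-receptor for lipopolysaccharide that also binds dying cells, had 893 CPM (889 to 897) with THP and 310 CPM (308 to 313) with vehicle, a log2 ratio of 1.52 that was 1.41 in the macrophage gate. Cxcl16, a transmembrane chemokine that doubles as a receptor for oxidized lipoprotein, had 199 CPM (197 to 201) and 81.9 CPM (80.6 to 83.1), a log2 ratio of 1.27 that was 0.81, short of 2-fold, in the macrophage gate. Scarf1 had 4.94 CPM (4.65 to 5.24) and 3.16 CPM (2.93 to 3.42), under the level minimum. Cd163, the hemoglobin scavenger receptor, named here after its values were seen, had 8.66 and 17.5 CPM over all cells and 23.1 and 66.7 CPM in the macrophage gate. Mrc1, the mannose receptor and also a marker of the macrophage gate, had 291 and 532 CPM in that gate.

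The remaining lists are read beside the same background, 0.911% of tested genes past 2-fold higher, 2.97% lower and a median of -0.18. At such shares, lists this short are too small for their counts to differ clearly from the background. Of 10 chaperones and adaptors, such as Lrpap1, which escorts Lrp1 through the secretory pathway, 0 were past 2-fold in either direction, with a median of -0.11. Of 17 genes of lipid handling, 1 was higher and 0 were lower, with a median of -0.02. That gene was Nr1h3, which encodes the oxysterol receptor LXR alpha, at 26.4 CPM (25.8 to 27.1) and 12.4 CPM (11.9 to 12.9), a log2 ratio of 1.03. In the macrophage gate it had 55.8 and 42.0 CPM, a log2 ratio of 0.40, short of the rule. The 7 lysosomal glycoproteins and proteases had 0 genes past the rule and a median of -0.03. The 13 regulators of macrophage receptor genes likewise had 0 and a median of 0.08. After subtraction of the length trend, the counts were the same except for lipid handling, which had 2 higher.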

How the data were processed

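Droplet single-cell libraries were made from detached cells after removal of dead cells, per the labels' protocols. The submitters' processing notes name Cell Ranger, STAR, bcl2fastq and the build mm10, and the matrices give software version 3.1.0 and format version 2, per the file headers. Each library was deposited as a matrix of whole-number UMI counts, not normalized. No source used here names the annotation release.

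Kept barcodes had at least 500 genes, at least 1000 UMIs and at most 10% mitochondrial UMIs. UMIs were summed per library and gate with Python 3.11.15 and scaled to CPM. Intervals are exact Poisson or exact (Clopper-Pearson) binomial at 95%. With 1 library per group no test across samples was made. Gates used the mean z score of log2(count per 10000 + 1) over 12 marker lists, and gates of at least 100 cells per library were used. A gate from 4 endothelial markers was dropped after seeing the data, since 1 of them reached 50 CPM. Doublets were not removed. TMM and RLE factors came from edgeR 4.0.16. Transcript lengths (longest transcript) and gene coordinates are of GENCODE M21 on GRCm38, and the length trend is the median ratio in 20 bins. It was interpolated between the median lengths of the bins and held constant beyond the outermost of them. The rule for named genes took the members, genes of the 5 lists past the size rule, Scarf1, and the 3 genes most like each member, of which the text gives the leading ones. Cd163, Mrc1, Vsig4, Lrpap1 and the other macrophage markers given for the Marco-high cells fall outside it and were named after their values were seen. The members, gene lists and markers were chosen with earlier results of these data known.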

Additional observations from a re-analysis of the deposited data

Results flagged for a closer look

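For Cd36 and Lrp1 the libraries differed in opposite directions in 2 large gates, beyond counting error, with library totals and with TMM factors alike. For Cd36 the log2 ratio of CPM + 1, THP over vehicle, was -0.73 in the osteoclast-like gate (945 and 1564 CPM) and 0.64 in the myeloid progenitor gate (53.6 and 34.0 CPM). For Lrp1 it was -0.44 in the macrophage gate (276 and 376 CPM) and 0.70 in the myeloid progenitor gate (37.6 and 22.9 CPM). Subtraction of the length trend turned the macrophage-gate value of Lrp1 to 0.14. Msr1 also had opposite signs, -0.20 in the macrophage gate and 0.88 in the myeloid progenitor gate, but its macrophage-gate value was 0.06 with TMM. Each gate had 1 library per group, and the difference between gates was not tested. The summed macrophage markers of the progenitor gate were 367 CPM with THP and 191 CPM with vehicle. Their log2 ratio, 0.94, was above those of Cd36 and Lrp1 in that gate. With only cells of a macrophage score below 0 the progenitor-gate ratios were 0.21 for Cd36 and 0.36 for Lrp1. Macrophage markers in those cells still summed to 166 CPM with THP and 117 CPM with vehicle. The part of macrophage RNA in the progenitor-gate values was not tested.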

How the results depend on the processing

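No paired analysis was possible because each group had 1 library, and leaving out a replicate was impossible for the same reason. Over all kept cells the count of members past 2-fold higher went from 0 to 1 with TMM factors, to 1 with RLE factors and to 1 at a 1.5-fold limit, and the member was Marco each time. Pairs of member and gate past 2-fold higher went from 5 to 9 with TMM, 11 after subtraction of the length trend and 11 with marker scores computed within each library. They went to 2 with only cells of a macrophage score below 0 and to 17 at 1.5-fold. TMM factors shifted ratios of a gate up by 0.123 (stromal) to 0.256 (macrophage), for members and other genes alike. Except at 1.5-fold, the shares of all genes past the rule under these settings are not given. The changes in count are thus no result about the members. Pairs lower went from 0 to 1 with a gate score of at least 1.0, 1 with a macrophage score below 0 and 2 at 1.5-fold. The pairs lower were Olr1 in mast cells or basophils, Cd36 in stromal cells, and Cd36 in osteoclast-like and Scarb1 in B-lineage cells, in that order. The macrophage-score subset, thinning to 2000 UMIs and the 1.5-fold limit within gates were added after seeing the data. The 2 pairs higher with a macrophage score below 0 were Marco in ungated cells (1.85) and Cd36 in the B lineage (1.70), and none of the 5 original pairs was among them. Of the original pairs, Marco in the monocyte gate kept a log2 ratio of 1.06 there and was left out by the 10 CPM minimum. Shares of cells with a UMI followed depth: of 180 shares, 157 moved outside their interval at 2000 UMIs and 130 without thinning. Stromal and B-lineage gates held between 102 and 193 cells per library, which limits their values to counting intervals too wide to order most gates.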
